A study of Mus musculus with 4 samples.

Results

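The thyroid hormone genes described here are *Dio2*, *Dio3*, *Thra*, *Thrb* and *Slc16a10*, 5 of the 32285 genes counted. They were chosen by name from the expression matrices, with *Dio2* known in advance to be among the leading genes of the activated cells, so its contrast between cell states is described and not tested. Muscle stem cells (MuSCs) and their progeny were isolated by FACS as tdTomato+ cells from hindlimb muscle and profiled by single cell RNA-sequencing with a 3′ kit. The question of the study was what becomes of MuSCs that lose α-catenins, the proteins that tie cadherin adhesion complexes to the cytoskeleton.

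The α-cdKO mice were homozygous for floxed *Ctnna1* and *Ctnna3* (each fl/fl) and carried *Pax7*CreERT2 with the Rosa26-tdTomato reporter, and the control mice carried *Pax7*CreERT2 and the tdTomato reporter without floxed catenin alleles. All mice were C57BL/6J, 3 to 4 months old, received tamoxifen and were studied 14 days after it. The tamoxifen-dependent Cre acts in cells that express *Pax7*, the transcription factor that marks MuSCs, and each of the 2 control and 2 α-cdKO samples pooled the cells of 2 littermates. A unique molecular identifier (UMI) marks a captured RNA molecule, so levels are given as CPM, the UMIs of a gene per 1000000 UMIs of the cells summed, with no scaling by gene length.

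Thyroid hormone circulates mainly as the prohormone T4. Deiodinase 2, the product of *Dio2*, converts T4 to the active hormone T3 inside the cell, and deiodinase 3, the product of *Dio3*, inactivates both. T3 binds the nuclear receptors encoded by *Thra* and *Thrb*, which act on target genes with retinoid X receptor partners, and *Slc16a10* encodes MCT10, a membrane transporter of thyroid hormones and aromatic amino acids. In skeletal muscle the deiodinases are known to set T3 locally during stem cell activation, proliferation and differentiation.

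Cells needed 1000 UMIs or more, 400 genes or more and less than 15% mitochondrial UMIs, which 28790 cells met. They came as 5484 from control 1, 5354 from control 2, 9786 from α-cdKO 1 and 8166 from α-cdKO 2, the numbers being those of the replicates. Of these, 27175 formed 6 myogenic clusters, and the sample totals ranged from 46099310 to 74921651 UMIs. The quiescent-like cluster of 5271 cells was led by *Fos*, *Jun*, *Hspa1a* and *Hes1*, of which the first 3 are stress response genes. Activated-like cells formed a pair of clusters, 8266 led by chaperone genes (*Dnaja4*, *Dnaja1*, *Hspe1*) and 11829 led by chemokine genes (*Cxcl3*, *Cxcl2*, *Cxcl5*), with *Dio2* also among the leading genes of the latter. The others were cycling-like (654 cells), differentiated-like (763) and mature-myocyte-like (392). Mature-muscle-like (1301), endothelial-like (179) and immune-like cells (135) were set aside. α-cdKO replicate 1 held activated-like cells with *Xist* UMIs (3418) and cells with UMIs of Y-linked genes (2412), whereas the other samples held at most 1 cell with *Xist* only. The samples shared 101 of 28689 distinct barcodes (0.352%).

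Sequences are shown for the deiodinases, because both genes lie on chromosome 12, code for selenocysteine at the active site, and had unlike levels. In GRCm38, *Dio2* (ENSMUSG00000007682) spans chr12:90724552-90738438 on the minus strand and *Dio3* (ENSMUSG00000075707) spans chr12:110279068-110281097 on the plus strand. A deiodinase is a selenoprotein in which a TGA codon, otherwise a stop codon, is read as selenocysteine at the active site. In *Dio2* this codon lies at chr12:90729823-90729825 in exon 2 of 2, and in *Dio3* at chr12:110279739-110279741 in exon 1 of 1. The coding sequence around it is printed in the direction of transcription with the TGA in capitals, and 41 of these 63 bases (65.1%) were identical.
Dio2, chr12:90729793-90729855: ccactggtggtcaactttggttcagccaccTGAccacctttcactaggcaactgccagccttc
Dio3, chr12:110279709-110279771: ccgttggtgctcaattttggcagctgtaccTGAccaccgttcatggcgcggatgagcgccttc

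The 250 bases before the RefSeq start of *Dio2* (GRCm38.p6) are printed because its level differed most between cell states among the 5 genes. Capitals mark a cyclic AMP response element (TGACGTCA) and a TATA box (TATAAA). The RefSeq start lies upstream of the gene's start in GENCODE.
Dio2, chr12:90739039-90739288, minus strand: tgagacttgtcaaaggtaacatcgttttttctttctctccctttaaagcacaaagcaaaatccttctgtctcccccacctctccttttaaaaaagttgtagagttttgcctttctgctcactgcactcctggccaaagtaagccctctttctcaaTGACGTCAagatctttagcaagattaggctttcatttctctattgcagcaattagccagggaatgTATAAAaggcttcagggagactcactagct
The *Dio2* window had 41.6% GC and 2 CpG and the window of the same length before *Dio3* 69.6% GC and 21 CpG, against a median of 52.4% GC over 32851 such windows of the genome. On either strand, TGACGTCA was found in 1.55% and TATAAA in 12.4% of these windows. In *Dio2* the first base of TGACGTCA lay at position -95 and that of TATAAA at -30, counted back from the start, and in *Dio3* TATAAA began at -31. These matches are letters in a window, and no binding was measured. *Slc16a10* and *Thrb* also had windows in the table, *Thra* did not.

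Of the 3 largest clusters, *Dio2* was highest in the chemokine-led activated-like cells and lowest in the quiescent-like cells. In chemokine-led cells its level was 67.0 CPM in control 1, 71.9 in control 2, 55.8 in α-cdKO 1 and 59.98 in α-cdKO 2. In chaperone-led cells the same samples had 35.7, 15.9, 27.1 and 28.3 CPM, so the 2 clusters did not overlap. In quiescent-like cells the levels were 6.81, 3.44, 6.43 and 3.19 CPM, below every value of both activated-like clusters. The mean level was 63.7 ± 7.20 CPM in chemokine-led, 26.7 ± 8.16 CPM in chaperone-led and 4.97 ± 1.92 CPM in quiescent-like cells (SD, n = 4 samples of both genotypes).

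Of 8519 *Dio2* UMIs in kept cells, 93.5% came from activated-like cells, which held 72.1% of all UMIs, and 67.3% came from chemokine-led cells, which held 38.3% of all UMIs. The log2 ratio of activated-like to quiescent-like levels, with 5 CPM added to each, was 2.30 and 2.63 (controls) and 2.06 and 2.57 (α-cdKO). It was above 2 in all 4 samples, with a mean of 2.39 ± 0.26. Among 7789 genes of at least 5 CPM, 99.7% had a lower mean ratio, and 4.7% were at least 2-fold higher in all 4 samples. This contrast was part of the choice of *Dio2*. For chemokine-led and chaperone-led cells alone the ratio was 2.80 ± 0.35 and 1.65 ± 0.32, again at least 2-fold higher in all 4 samples, as for 5.87% and 3.12% of the genes, with 0.693% at least 2-fold lower in the latter. From chaperone-led to chemokine-led cells *Dio2* had 0.82, 1.88, 0.92 and 0.97 on the log2 scale. With 5 CPM added, that is short of 2-fold in 3 samples, in a contrast where 0.0128% of the genes were higher and 0.745% lower by that measure. Without the added 5 CPM, only control 1 was short of 2-fold (67.0 against 35.7 CPM). The levels were 55.8 against 27.1 CPM in α-cdKO 1 and 59.98 against 28.3 CPM in α-cdKO 2.

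*Dio2* was low again in the later myogenic states. Differentiated-like cells, which carried *Myog* among their leading genes, had 0.824 and 4.92 (controls) and 8.09 and 4.96 CPM (α-cdKO). Cycling-like cells had 3.55, 11.6, 6.55 and 17.9 CPM in the same order. Both ranges overlapped that of quiescent-like cells, and all lay below the chemokine-led values. The cycling-like range also overlapped the chaperone-led range, with 17.9 CPM in α-cdKO 2 above the chaperone-led 15.9 CPM of control 2. Its mean was 9.89 ± 6.27 CPM, against 4.97 ± 1.92 CPM in quiescent-like cells. The log2 ratio of differentiated-like to activated-like cells was -2.47 ± 0.61, at least 2-fold lower in all 4 samples, as for 3.86% of the genes with 7.9% higher. Against quiescent-like cells it was -0.08 ± 0.63 with no common direction, where 6.88% of the genes were higher and 2.99% lower. Mature-myocyte-like cells, led by the fast troponin genes *Tnnc2* and *Tnnt3*, were the exception with 101.9, 52.7, 48.1 and 57.0 CPM. These values rest on 50, 18, 31 and 44 UMIs and overlapped the chemokine-led range. The mature-myocyte-like cells also carried the activation genes *Myod1* (440, 844, 774 and 780 CPM) and *Cxcl2* (239, 697, 891 and 1258 CPM), and the part of this activated signal in their *Dio2* level was not tested.

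Outside the myogenic cells *Dio2* was scattered. Mature-muscle-like cells had 4.88, 2.65, 4.84 and 25.4 CPM, with α-cdKO replicate 2 apart from the others. Endothelial-like cells ranged from 0 to 55.4 CPM and immune-like cells from 0 to 25.3 CPM. A single endothelial-like cell held 11 of 12 UMIs in control replicate 1, and another held 17 of 23 UMIs in α-cdKO replicate 1. In the order of mean levels over the 9 groups, from mature-myocyte-like to differentiated-like cells, the step from chemokine-led to chaperone-led cells was the only one between neighbours whose sample values did not overlap.

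**Figure D1:**
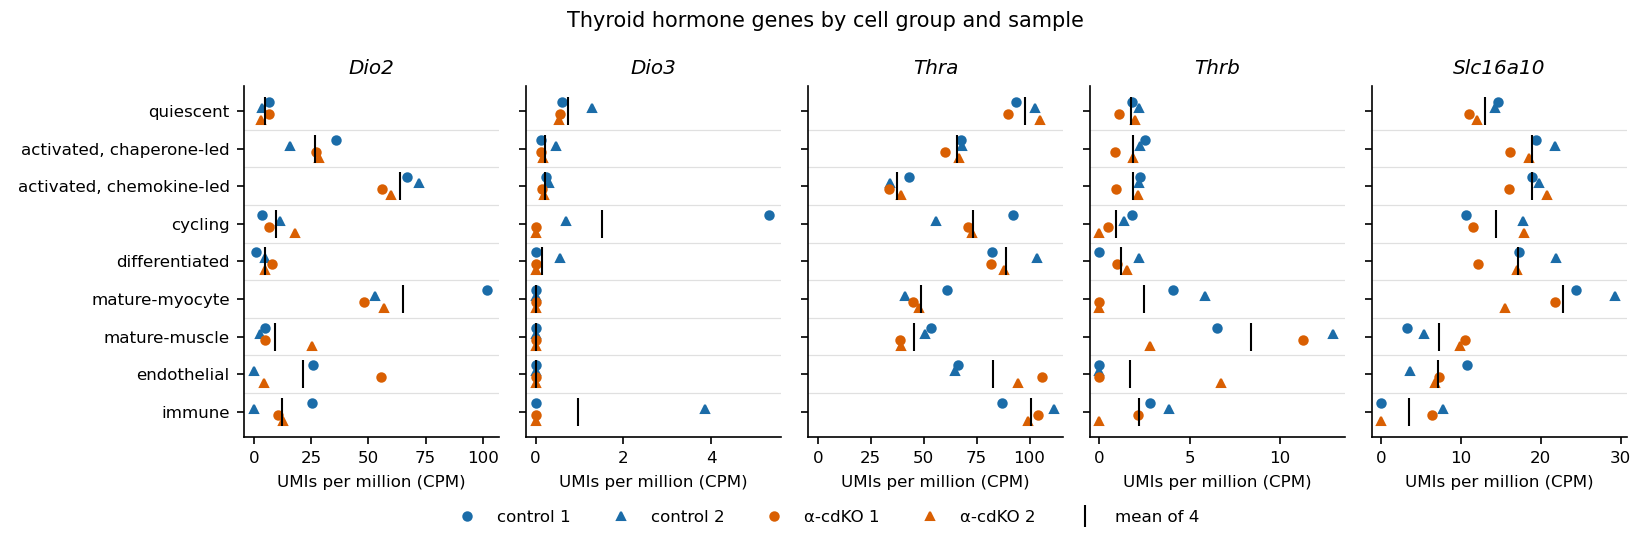
Levels of the 5 genes in CPM (x axis, a separate linear scale for each gene) in 9 cell groups (rows); each symbol is a sample and the vertical bar is the mean of 4. *Dio2* is higher in both activated-like clusters than in quiescent-like cells in every sample, *Thra* has the opposite order, and *Thrb* is highest in mature-muscle-like cells.

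To set depth aside, each cell was thinned to 2000 UMIs. A *Dio2* UMI was then found in 1.15%, 0.781%, 1.09% and 0.378% of quiescent-like cells and in 5.64%, 4.91%, 5.28% and 4.62% of activated-like cells in the same sample order. Over all samples the shares were 0.818% (95% exact interval 0.590-1.10%) and 5.10% (4.80-5.42%), and 11.1% of activated-like cells had a *Dio2* UMI without thinning. Every sample therefore kept the order of states at equal depth. In immune-like cells the share was 0.794% on 1 of 126 cells (95% exact interval 0.0201-4.34%). At 4000 UMIs per cell it was 4.26% on 4 of 94 cells (1.17-10.5%), against 1.27% in quiescent-like cells. Mature-muscle-like cells had 0.436% on 4 of 917 cells (0.119-1.11%) at 2000 UMIs, all 4 from α-cdKO replicate 2, and 2.28% on 12 of 526 cells at 4000 UMIs. These few cells with a *Dio2* UMI give no usable background, so whether the quiescent-like share exceeds free RNA was not tested. The median depths before thinning were 6092 UMIs in quiescent-like, 7616 in activated-like and 7810 in immune-like cells. The intervals cover counting error only.

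The *Dio2* UMIs were concentrated in few cells. Of activated-like cells, 12.4%, 10.4%, 10.3% and 11.3% had any *Dio2* UMI, in the order used above. Cells with 10 or more *Dio2* UMIs numbered 44, 41, 42 and 54, 181 of 20095 in all (0.901%), and held 3004 of 7962 *Dio2* UMIs (37.7%). The share of a sample's *Dio2* UMIs in these cells was 39.8% and 50.9% (controls) and 26.7% and 38.0% (α-cdKO). A difference between genotypes in this share was not tested. The highest count in a single cell was 44, 52, 34 and 56 UMIs. The limit of 10 UMIs was set after the values were seen.

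The cells with 10 or more *Dio2* UMIs were somewhat deeper than the rest. They had medians of 9834, 9059, 8142 and 10332.5 UMIs, against 8054, 8883.5, 6601 and 7870 UMIs in all activated-like cells of the same samples. The cells with the highest doublet scores made up 8.84% of them and 7.24% of all activated-like cells, and 136 of the 181 were chemokine-led. At 2000 UMIs per cell, the variance of *Dio2* over its mean in chemokine-led cells was 3.10, 3.89, 2.36 and 3.53, against a median ratio of 1.07 over 3840 genes of at least 20 CPM. Only 58 of those genes had a higher mean ratio than *Dio2*. *Thra*, at 37.6 CPM in the same cells, had a mean ratio of 1.03, near the median.

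The same cells were compared with the rest for all other genes. Among 4053 genes of at least 20 CPM, 0 besides *Dio2* were at least 2-fold higher, or lower, in all 4 samples in cells with 10 or more *Dio2* UMIs than in activated-like cells with none, with 20 CPM added to each level. The gene with the highest lowest ratio was *Ubr2*, a ubiquitin ligase, with log2 ratios of 0.86, 0.79, 0.51 and 0.61. The small heat shock gene *Hspb1* was lower, with -0.96, -2.02, -0.52 and -0.86. Both activated-like clusters were pooled here. Of the 181 cells, 136 were chemokine-led (39 of 41 in control 2), against 11829 of all 20095 activated-like cells. The part of this cluster make-up in the ratios was not tested. The mean log2 ratio was -0.12 for *Thra* and 0.05 for *Slc16a10*, and 0.15 for *Klf9*, which encodes a transcription factor induced by T3. Of the genes near *Dio2*, the long noncoding RNA *Gm26512*, which starts on the opposite strand (chr12:90738201-90869235) and overlaps *Dio2* by 238 bases, had 0.66, 1.93, 0.57 and 0.28, higher in every sample. The added 20 CPM shrinks these ratios, and *Gm26512* was too low for the count above. Its levels were 13.8, 60.8, 12.6 and 7.26 CPM, against 1.44, 1.29, 1.925 and 2.41 CPM in cells without *Dio2*. The former values come from 44, 41, 42 and 54 cells and so rest on few *Gm26512* UMIs, whose numbers are not given here. By state its mean was 4.36 CPM in quiescent-like, 1.90 CPM in chaperone-led and 2.65 CPM in chemokine-led cells. *Cep128*, at 260054 bases from *Dio2*, had 0.63, 1.01, 0.41 and 0.82, and *Ston2* had 0.20, 0.25, 0.39 and 0.35. The neighbors *Tshr* (0.50, -0.15, 0.07 and -0.01) and *Gtf2a1* (0.20, -0.41, 0.24 and 0.09) had no common direction. These genes were named after their values were seen, and the ratios carry no test.

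**Figure D2:**
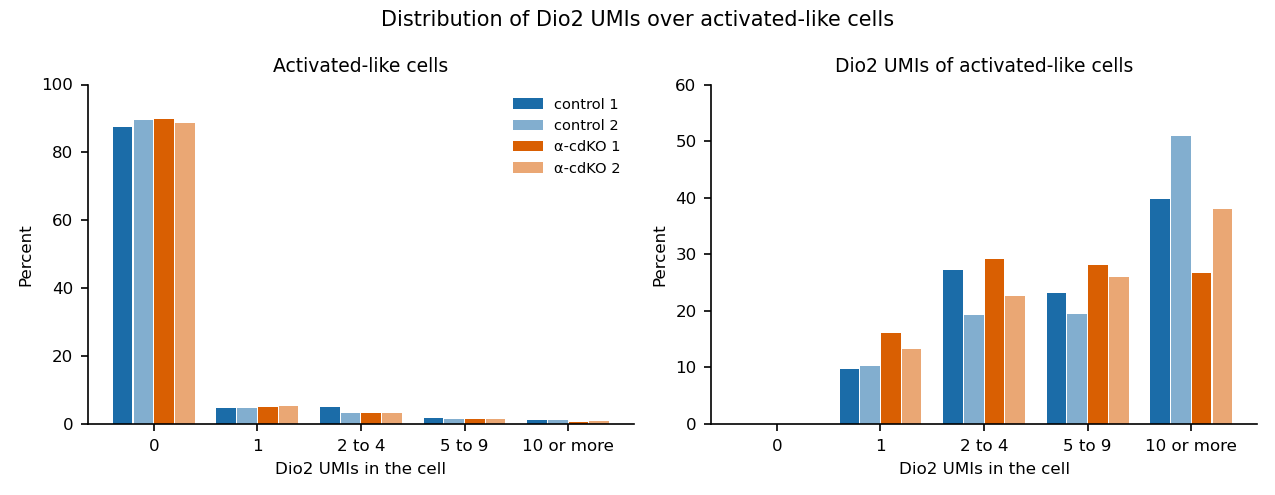
Activated-like cells of each sample by their number of *Dio2* UMIs (x axis), as a percent of cells (left) and as a percent of the *Dio2* UMIs of those cells (right). The bin of 10 or more UMIs holds under 2% of the cells in each sample and from 26.7% to 50.9% of the *Dio2* UMIs.

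The *Dio2* level was also set beside single activation genes within a cluster. In chemokine-led cells thinned to 2000 UMIs, its mean over samples was 61.6 CPM with and 61.5 CPM without a *Myod1* UMI, *Myod1* being the myogenic determination factor, and it was higher with *Myod1* in 3 of 4 samples. For the chemokine gene *Cxcl2* the means were 58.3 and 61.1 CPM, and the level was higher with *Cxcl2* in 2 of 4 samples. In chaperone-led cells *Dio2* was higher with either gene in 4 of 4 samples, with means of 31.0 against 23.5 CPM for *Myod1* and 42.4 against 23.1 CPM for *Cxcl2*. For *Myod1* the gap was wide only in control 1 (56.7 against 31.0 CPM). The other samples had 17.05 against 14.7, 27.9 against 26.1 and 22.5 against 22.1 CPM. Other split genes did not go this way in chaperone-led cells. *Dio2* was higher with *Hspe1* in 1 of 4 samples (means of 23.3 with and 51.2 CPM without). With *Pax7* it was higher in 1 of 4 samples, and with *Fos* or *Klf9* in 2 of 4.

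*Dio3* was at the edge of detection, with 66 UMIs in all kept cells. Quiescent-like cells held 25 of them (37.9%, against 14.5% of all UMIs) and activated-like cells 35. The level was 0.606, 1.27, 0.554 and 0.531 CPM in quiescent-like cells and 0.121, 0.461, 0.131 and 0.175 CPM in chaperone-led cells, which did not overlap. Quiescent-like levels thus lay above chaperone-led levels, on 4, 10, 5 and 6 UMIs against 2, 6, 3 and 5 UMIs. The mean in chemokine-led cells was 0.218 CPM. Cycling-like cells had 4 UMIs and mature-muscle-like and mature-myocyte-like cells 0. *Dio3* lies in the imprinted *Dlk1*-*Dio3* locus, whose noncoding RNA *Meg3* was abundant at 1700 CPM in quiescent-like and 1353 CPM in activated-like cells (log2 ratio -0.33).

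*Thra*, which encodes the receptor TRα1 and a splice form that does not bind T3, followed the opposite order to *Dio2*. Quiescent-like cells had 93.7 and 102 (controls) and 90.0 and 105 CPM (α-cdKO). Chaperone-led cells had 67.5, 68.0, 60.1 and 66.8 CPM and chemokine-led cells 43.1, 34.3, 33.5 and 39.4 CPM. The 3 ranges were separate in all samples, with means of 97.8 ± 7.12, 65.6 ± 3.70 and 37.6 ± 4.52 CPM (SD, n = 4). The counts do not separate the splice forms, of which the annotation lists 9 transcripts, 4 of them coding, at chr11:98740638-98769006.

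The log2 ratio of *Thra* between activated-like and quiescent-like cells was -0.89 ± 0.10, below 0 in 4 of 4 samples, and 5.24% of the 7789 genes had a lower ratio. Between chemokine-led and quiescent-like cells it was -1.27 ± 0.17 and at least 2-fold lower in all 4 samples, as for 4.44% of the genes. In differentiated-like cells *Thra* was again at 82.4, 103, 81.6 and 87.97 CPM, overlapping the quiescent-like range. At 2000 UMIs per cell, a *Thra* UMI was found in 17.2% of quiescent-like, 11.6% of chaperone-led and 6.85% of chemokine-led cells, so the order held at equal depth. Immune-like cells had 19.05%, above every myogenic share named here. The gene *Nr1d1* overlaps *Thra* by 1075 bases on the opposite strand and had the opposite order, with a mean of 18.05 CPM in quiescent-like and 37.2 CPM in activated-like cells.

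**Figure D3:**
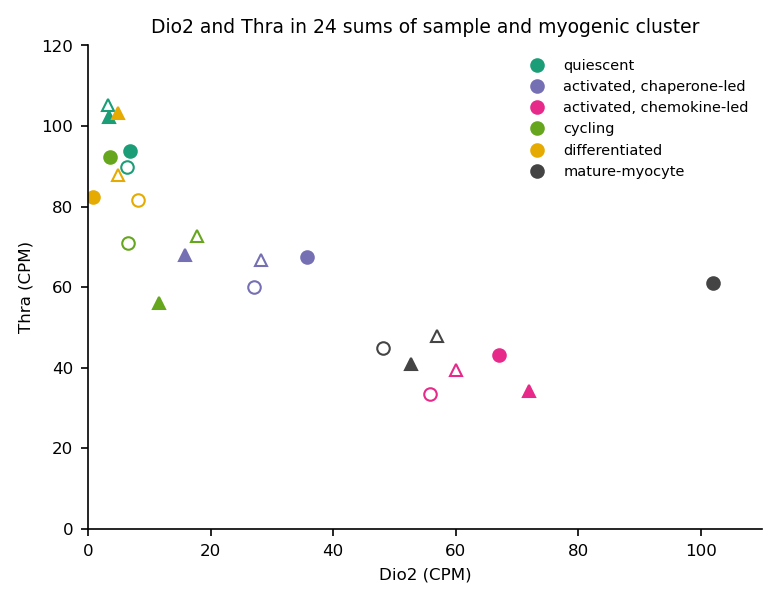
*Thra* (y axis) against *Dio2* (x axis), both in CPM on linear scales, in 24 sums of UMIs, 1 for each of 4 samples and 6 myogenic clusters; color gives the cluster, filled symbols are control and open symbols α-cdKO samples, circles are replicate 1 and triangles replicate 2. Chemokine-led sums lie at high *Dio2* and low *Thra*, quiescent-like and differentiated-like sums at low *Dio2* and high *Thra*.

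Over these 24 sums, Pearson's r of log2 levels was -0.87 between *Dio2* and *Thra*, 0.61 between *Dio2* and *Slc16a10* and -0.51 between *Thra* and *Slc16a10*. These values describe the clusters, since 6 sums share each library and the clusters were formed on the expressed genes. Among 4059 genes of at least 20 CPM, those most like *Dio2* were *Uap1* (0.945), *Fgfr1* (0.942), *Pold4* (0.930), *Prkx* (0.922) and *Arf4* (0.921). *Fgfr1* encodes a receptor for fibroblast growth factors. Among those most like *Thra* were *Eid1* (0.907), *Jun* (0.902), *Igbp1* (0.894) and *Irf2bpl* (0.891), of which *Jun* also led the quiescent-like cluster. Those most like *Slc16a10* were *Dnajb2* (0.858), *Usp16* (0.823), *Cry1* (0.771), *Dhx40* (0.744) and *Usp50* (0.737).

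*Thrb*, the receptor gene at chr14:17660261-18038090, was far less abundant than *Thra*, with 464 UMIs against 14468. In all myogenic cells it had 2.25 and 2.19 (controls) and 0.873 and 1.89 CPM (α-cdKO). The highest mean was in mature-muscle-like cells, with 6.50, 12.9, 11.3 and 2.83 CPM, which held 13.8% of its UMIs and 2.49% of all UMIs. Of the 64 *Thrb* UMIs there, 44 came from control 2, which also held 790 of the 1301 cells. This range was wide and overlapped that of mature-myocyte-like cells, next in order. Between activated-like and quiescent-like cells the log2 ratio was 0.02 ± 0.07, without a common direction in the 4 samples.

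*Slc16a10* (chr10:40033532-40142258) had modest differences between states. Its level was 14.7, 14.3, 10.97 and 12.04 CPM in quiescent-like, 19.4, 21.7, 16.2 and 18.5 CPM in chaperone-led and 18.9, 19.8, 16.01 and 20.8 CPM in chemokine-led cells. Both activated-like ranges lay above the quiescent-like range and overlapped each other. The log2 ratio of activated-like to quiescent-like cells was 0.41 ± 0.10, above 0 in 4 of 4 samples, and at 2000 UMIs per cell 3.38% of activated-like and 2.57% of quiescent-like cells had a UMI. Mature-muscle-like cells had a mean of 7.23 CPM, below the quiescent-like range without overlap.

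The rest of the thyroid hormone pathway was read from a list of 59 genes in 12 roles that includes the 5 genes. *Dio1*, the deiodinase of liver and kidney, had no UMI in any kept cell, and a count of 0 allows up to 3. Of 42 listed genes of at least 5 CPM, 4 were at least 2-fold higher in activated-like than in quiescent-like cells in all 4 samples and 0 were at least 2-fold lower, where 4.7% of 7789 genes were higher and 1.98% lower. The 4 were *Dio2*, *Slc3a2*, *Ube2j1* and *Hif1a*. The median log2 ratio was 0.14 over the 42 genes and 0.01 over all 7789. *Dio2* was chosen with this contrast known and is part of both the count and this median. Neither is therefore read as a result about the list.

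Of the 7 listed membrane transporters, 5 had a log2 ratio of activated-like to quiescent-like cells above 0 in all 4 samples, and 1 was below 0 in all 4. Of these 7 genes, 5 reached 5 CPM. A common direction was frequent in the list, with 20 of the 42 genes of at least 5 CPM above 0 and 15 below 0 in all 4 samples. The share over all genes was not counted, so the transporter count is not read as a result. *Slc3a2*, the heavy chain of the LAT1 and LAT2 amino acid transporters, had 128 CPM in quiescent-like and 387 CPM in activated-like cells (log2 ratio 1.57). Its light chain partner *Slc7a5*, named after its value was seen, had a ratio of 0.92. *Slco1c1*, a T4 transporter under 5 CPM and also named after its value was seen, went the other way, with a mean of 1.79 CPM in quiescent-like and 0.280 CPM in activated-like cells and lower values in 4 of 4 samples. *Crym*, a cytosolic T3 binding protein, was found mostly in mature-muscle-like cells, with 46 UMIs there and 9 in all myogenic cells.

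Deiodinase 2 is degraded after ubiquitination, and of the genes of that process *Ube2j1*, a ubiquitin-conjugating enzyme of the endoplasmic reticulum, had 51.9 and 130 CPM in quiescent-like and activated-like cells (log2 ratio 1.25). *Wsb1*, which encodes the adaptor that recruits a ubiquitin ligase to deiodinase 2, had 158 and 124 CPM (-0.34). Of the genes for selenocysteine incorporation, *Pstk*, a kinase that acts on the selenocysteine tRNA, had 13.2 and 6.33 CPM (-0.67) and *Trnau1ap* -0.20. Among the regulators of deiodinase genes, *Hif1a*, the hypoxia response factor, had 45.7 and 114.9 CPM (1.23) and *Foxo1*, named after its value was seen, 55.7 and 26.9 CPM (-0.93).

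Of the receptor partners, *Rxrb*, a retinoid X receptor, had 10.7 and 15.1 CPM in quiescent-like and activated-like cells (log2 ratio 0.36). The corepressors *Ncor1* and *Gps2* had ratios of 0.10 and -0.70, and the coactivator *Crebbp* 0.79. Of the T3-responsive genes, *Klf9* was abundant at 488 and 1017 CPM, with ratios of 0.79, 1.44, 0.94 and 1.12. *Thrsp*, a lipogenic gene under 5 CPM in myogenic cells, had 14.7 and 1.498 CPM (-1.56), so these responsive genes did not share a direction. *Thrsp* was higher still in endothelial-like cells, at 65.2 CPM. *Rian*, a noncoding RNA of the *Dlk1*-*Dio3* locus, had 182 and 113 CPM (-0.67).

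Genotype was compared on UMIs summed per sample, since cells are not replicates. The targeted genes gave no check of recombination. *Ctnna1* had 91.1 and 74.7 (controls) and 79.3 and 75.5 CPM (α-cdKO) in all myogenic cells, but 3′ tags need not lie in the deleted part of the gene. *Ctnna3* had 12 UMIs in myogenic cells.

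None of the 5 genes was called between genotypes by edgeR's quasi-likelihood test at a Benjamini-Hochberg adjusted p under 0.05. In all myogenic cells 0 of 5 were called, where 0.178% of 14639 genes were. The share called among all genes was likewise 0.178% in quiescent-like, 0.29% in activated-like and 0.0337% in differentiated-like cells, and 0 of the genes tested there were called in each. With 2 samples against 2, these results do not show that levels were the same.

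*Dio2* in all myogenic cells was 45.2 and 35.8 (controls) and 32.7 and 35.1 CPM (α-cdKO). The log2 fold change (α-cdKO over control) was -0.27 (SE 0.16, edgeR adjusted p = 0.751), and it was -0.07 without control replicate 1 and -0.44 without control replicate 2. Activated-like cells held 93.5% of the *Dio2* UMIs of kept cells, so their values are largely the same data. There the levels were 53.3 and 47.3 against 42.6 and 43.7 CPM, with a log2 fold change of -0.20 (SE 0.14, edgeR adjusted p = 0.770). The lower values in α-cdKO samples were present in chemokine-led cells (-0.23, SE 0.15) but not in chaperone-led cells (0.12, SE 0.30), where control replicates 1 and 2 lay above and below both α-cdKO samples.

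Within α-cdKO replicate 1, a pool of 2 mice, cells of either sex could be compared, although sex and mouse cannot be told apart there. Its activated-like cells with *Xist* UMIs had 40.01 CPM of *Dio2* and its cells with Y-linked UMIs had 49.1 CPM, and in quiescent-like cells the levels were 5.06 and 5.18 CPM. Among cells with Y-linked UMIs the levels were 55.1 and 47.2 (controls) and 49.1 and 46.1 CPM (α-cdKO), so the genotypes overlapped. The part of these cells in the genotype difference was not tested. *Thra* went the other way in activated-like cells of α-cdKO replicate 1, with 52.6 CPM in cells with *Xist* and 34.1 CPM in cells with Y-linked UMIs. *Thrb* had 0.683 and 1.35 CPM and *Slc16a10* 14.9 and 17.3 CPM in that order. Both activated-like clusters were pooled here, and the part of cluster make-up in these differences was not tested. In quiescent-like cells the log2 fold change of *Dio2* was -0.06 (SE 0.40, edgeR adjusted p = 0.981), and in differentiated-like cells it was 1.06 (SE 0.64) on 1 to 34 UMIs per sample. The latter was 0.45 without control replicate 1, 2.99 without control replicate 2, 0.36 with the highest doublet scores removed, 0.11 at a clustering resolution of 0.4 and 0.13 with clusters formed without the thyroid list.

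For *Thra* the log2 fold change was -0.04 (SE 0.13, edgeR adjusted p = 0.953) in all myogenic cells, 0.03 (SE 0.15) in quiescent-like and -0.03 (SE 0.14) in activated-like cells, each smaller than its standard error. *Slc16a10* had -0.20 (SE 0.16, edgeR adjusted p = 0.786; -0.0283 and -0.40 without α-cdKO replicate 1 and 2), with -0.29 in quiescent-like and -0.13 in activated-like cells. *Thrb* had -0.68 (SE 0.39, edgeR adjusted p = 0.746), with the lowest level in α-cdKO replicate 1, and -0.21 without that sample and -1.39 without α-cdKO replicate 2. *Dio3* had -1.12 (SE 0.47) on 65 UMIs, with an unadjusted p of 0.0494 and an adjusted p of 0.705 by edgeR, and -0.64 without control replicate 2. Its neighbor *Dio3os*, a noncoding RNA that lies 895 bases away on the opposite strand, had -2.24 (adjusted p = 0.569 by edgeR) on 71 UMIs, and neither passed the test.

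**Figure D4:**
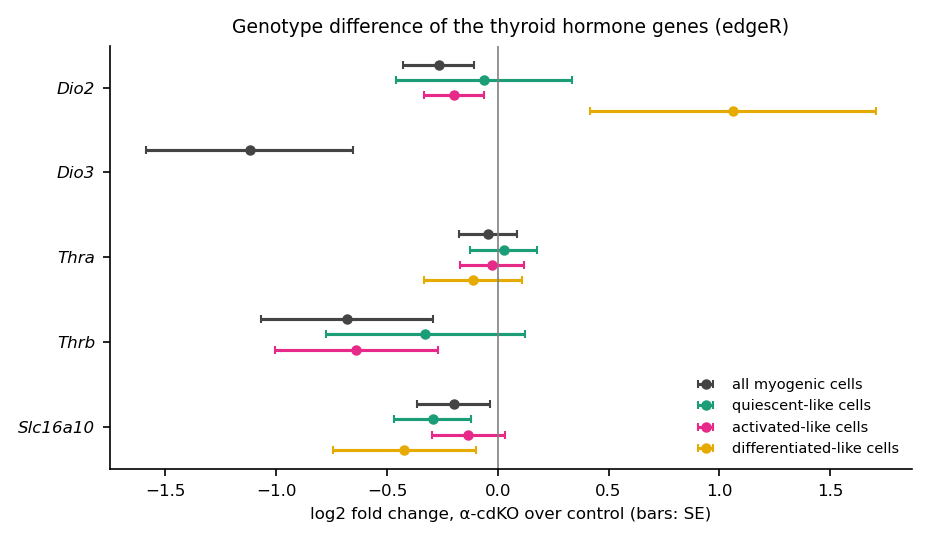
Log2 fold change of each gene, α-cdKO over control (x axis), from edgeR fits of UMIs summed per sample (n = 2 samples per genotype) in 4 sets of cells (color); points are estimates and bars ± SE. No estimate passed an adjusted p of 0.05, and *Dio3* was tested in all myogenic cells only.

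The change in the ratio of activated-like to quiescent-like cells between genotypes was -0.12 (SE 0.34) for *Dio2* on the log2 scale and -0.05 for *Thra*, 0.16 for *Slc16a10*, -0.31 for *Thrb* and 0.00 for *Dio3*. 0 of 5 were called by edgeR, where 0.00728% of 13743 genes were. Of the listed pathway genes tested, 0 of 55 in all myogenic, 0 of 50 in quiescent-like, 0 of 54 in activated-like and 0 of 44 in differentiated-like cells were called, with 3, 3, 3 and 0 at an unadjusted p under 0.05. Over all genes tested, 1035 of 14639, 988 of 11818, 1052 of 13451 and 331 of 8910 had such a p, which is a larger share in each. The median log2 fold changes of the listed genes were -0.07, -0.06, -0.03 and 0.01, and those of all genes lay between -0.01 and 0.00.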

How the data were processed

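The authors deposited raw UMI counts per gene and barcode, made with Cell Ranger 7.1.0 on GRCm38, with no normalization. Groups were taken from the sample labels. Members, lists and tests were chosen with earlier results of these data known. Seurat 5.3.0 was used to scale each cell to 10000 counts, choose 2000 variable genes and compute 30 principal components. Harmony was implemented for this work, since the package was not installed, and tested on simulated data. Louvain clustering used resolution 0.2. A cluster took the class of the marker list with the highest mean log2 ratio to the other cells. Only lists with at least 3 genes raised 1.5-fold or more counted. In the chemokine-led cluster 7 genes of the activated list were raised, but the mean log2 ratio of that list was -0.10. In the chaperone-led cluster 5 were raised, with a mean of 0.30. Mature-muscle-like and non-myogenic clusters were set aside before clustering again.

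Scrublet (scanpy 1.11.5) gave doublet scores, and the 0, 5, 1 and 1 cells past its automatic cutoff were not removed. Removing the 241, 229, 766 and 533 highest scores was an alternative. The genotype test was edgeR 4.0.16, quasi-likelihood with TMM after filterByExpr, checked on simulated data, with DESeq2 1.42.0 as an alternative. The p-values measure the spread between samples, each a pool of 2 littermates. Positions are from GENCODE M21 and promoters from RefSeq. Genes named were the 5 members, per role of the list the highest level and the largest ratio between states, and the 5 most like patterns. Exceptions are named in the text, and some genes that the rule takes in are not reported here. R 4.3.3, Python 3.11.15, pandas 2.3.3 and scipy 1.17.1 were used.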

Additional observations from a re-analysis of the deposited data

How the results depend on the processing

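No member was called between genotypes under any alternative, and the lowest adjusted p of 286 such values was 0.0986 by edgeR (*Thrb*, activated-like cells, without α-cdKO replicate 2). With a sample left out, its genotype has 1 sample, which is assumed to vary like the other genotype's pair. Low counts limit *Dio3* and *Thrb*, and 2 samples per genotype limit every test. Counts of all genes called moved far more. In all myogenic, quiescent-like, activated-like and differentiated-like cells they were 26, 21, 39 and 3, with 123, 43, 115 and 10 by DESeq2 and 15, 298, 413 and 70 without a count filter. Leaving out 1 sample gave 0 to 52, 18 to 98, 47 to 169 and 30 to 121. Without control replicate 2, α-cdKO replicate 1 and α-cdKO replicate 2 the counts were 98, 38 and 76 in quiescent-like, 89, 68 and 169 in activated-like and 121, 30 and 51 in differentiated-like cells, with 96 in the last without control replicate 1. In all myogenic cells edgeR called 0 without control replicate 1 or 2 (667 and 1924 at an unadjusted p under 0.05) and 52 without α-cdKO replicate 2. For the genotype difference in the state ratio edgeR called 1 gene, 29 without a count filter and 8 to 128 with 1 sample left out (128 and 126 without control replicates 1 and 2, 8 and 20 without α-cdKO replicates 1 and 2). Clusters formed without the thyroid list gave 12, 1 and 2 in quiescent-like cells, differentiated-like cells and the state ratio. No integration gave 12 and 1 in the first pair, and resolution 0.4 gave 1 in differentiated-like cells and 0 in the state ratio. The causes were not tested.

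With a replicate block, edgeR called 26, 42, 70 and 16 genes in the 4 sets of cells, and no member. The labels do not say what a replicate number shares. Same-numbered samples deviated in opposite directions (r = -0.188 over 14639 genes). With 2 samples per genotype this is a single correlation, so it cannot show whether the numbers pair the samples. A crossed block, chosen after seeing the data, called 161, 34, 163 and 5. No block was run for the state ratio.

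The *Dio2* log2 ratio between states kept its direction throughout. It was 2.31 to 2.50 with 1 sample left out, 3.05 with 1 CPM added, 2.80 and 1.65 for chemokine-led and chaperone-led cells alone, and 1.77 without cells of 10 or more *Dio2* UMIs, the last 3 chosen after seeing the data. The genotype difference of *Dio2* in activated-like cells was -0.26 to -0.13 with 1 sample left out and 0.12 in chaperone-led cells alone. Members near 0 changed sign. In quiescent-like cells *Dio2* had 0.16 with the highest doublet scores removed, 0.35 at resolution 0.4 and 0.0237 with clusters formed without the thyroid list, where *Thra* had -0.0267 and *Thrb* 0.12. For the genotype difference in the state ratio, *Thra* had 0.0410 with those clusters and *Dio3* -0.10 at 2000 UMIs per cell. With 1 sample left out, genotype differences ranged as follows. *Thra* had -0.18 to 0.0754 in all myogenic, -0.11 to 0.15 in quiescent-like, -0.14 to 0.0817 in activated-like and -0.26 to 0.0968 in differentiated-like cells, and -0.20 to 0.0944 in the state ratio. *Dio2* had -0.61 to 0.45 in quiescent-like cells (above 0 without control replicate 1 or α-cdKO replicate 2) and -0.60 to 0.41 in the state ratio. *Thrb* had -0.83 to 0.0127 in quiescent-like cells, *Slc16a10* -0.28 to 0.00463 in activated-like cells and *Dio3* -0.20 to 0.15 in the state ratio. The *Thrb* log2 ratio between states ranged from -0.0127 to 0.0440.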
